A study of Mus musculus with 6 samples.

Results

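The miR-302 cluster is a group of microRNAs (miRNAs) transcribed together from 1 locus in pluripotent cells. Its mature guide strands mmu-miR-302a-3p, mmu-miR-302b-3p and mmu-miR-302d-3p were followed by name across 6 small RNA libraries made from mouse embryonic stem cells. The names were chosen with earlier results of these data known, and they are 3 of 1899 mature miRNA entries in the deposited tables. All 3 were among the 351 entries with a mean of at least 50 uniquely matched reads per library, which is the set used wherever the members are set against other miRNAs. The other 7 entries of the cluster, which comprise the 5p arms of these hairpins and both arms of miR-302c and miR-367, fell under that mean.

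The cells were 129/Ola embryonic stem cells, either wild type (WT) or with the gene for the transcription factor Wt1 knocked out (KO). Each of 6 groups had 1 library: both genotypes untreated, both genotypes with retinoic acid (RA), and Wt1 KO after 12 h or 24 h of doxycycline (dox). RA, a vitamin A derivative that starts differentiation, was given at 1 µM (the labels write it as µm), for a time not given in the sources used here. Dox was given at 1 µg/ml to switch on an inducible Wt1. All groups shared gelatin-coated dishes and serum medium with leukemia inhibitory factor, and no feeder layer is named. The clone with the inducible gene is not named in the labels. The dox libraries may therefore come from another line than the untreated Wt1 KO library, and dox alone, without the transgene, was not analysed. Neither Wt1 mRNA nor any protein-coding marker was measured, so the knockout, the induction and the type of pluripotency (naive or primed) were not checked.

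A miRNA guides silencing proteins to messenger RNAs that pair with its seed, the bases 2 to 8 from its 5′ end. The miR-302 guides carry the seed that is typical of embryonic stem cells, shared with several guides of the rodent miR-290 cluster, and are known for speeding the cell cycle and for restraining differentiation, in part by silencing inhibitors of cyclin-dependent kinases. In mouse, the miR-290 cluster is the main source of this seed in naive embryonic stem cells, while miR-302 is known for rising in the primed state of the epiblast and falling again as cells differentiate. Wt1 is a zinc finger protein known from kidney, gonad and mesothelium.

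The member sequences are shown because they differ only near the 3′ end, so the members share a seed and are told apart in these counts by few bases. Letters are those of the deposited tables, written 5′ to 3′ with T for U, and capitals mark the seed.
mmu-miR-302a-3p: tAAGTGCTtccatgttttggtga
mmu-miR-302b-3p: tAAGTGCTtccatgttttagtag
mmu-miR-302d-3p: tAAGTGCTtccatgtttgagtgt
mmu-miR-302c-3p: aAGTGCTTccatgtttcagtgg
Counted from 1 at the 5′ end, mmu-miR-302b-3p differs from mmu-miR-302a-3p by G19A, G22A and A23G, and mmu-miR-302d-3p differs from mmu-miR-302a-3p by T18G, G19A and A23T. Each pair of members is identical at 20 of 23 bases, and the first 17 bases are the same in all 3. The entry for mmu-miR-302c-3p starts at the members' base 2, so its seed by position is AGTGCTT and not AAGTGCT. Reads that fitted several entries were few: across the 6 libraries each member had 1 multi-match read, in the library of dox for 24 h. Guides that stop short of the differing bases or carry added 3′ bases cannot be told from the tables.

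The seed AAGTGCT is also carried by 3 guides of the miR-290 cluster, which is on chromosome 7 (GRCm38.p6). They are printed because the members are compared with them further on.
mmu-miR-291a-3p: aAAGTGCTtccactttgtgtgc
mmu-miR-294-3p: aAAGTGCTtcccttttgtgtgt
mmu-miR-295-3p: aAAGTGCTactacttttgagtct
Outside the seed these guides are less alike, with 6 to 10 bases shared with a member out of the 15 or 16 compared there.

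In RefSeq's hairpin table for GRCm38.p6, the 5 hairpins of the cluster lie on the + strand of chr3:127545228-127545807, a span of 580 bases, in the order miR-302b, miR-302c, miR-302a, miR-302d and miR-367. The annotation of that build places them inside Larp7, a protein-coding gene on the opposite strand at chr3:127536714-127553349, in the intron between exons 8 and 9 of an annotated transcript, and they overlap 0 of its exons. The mature positions are chr3:127545539-127545561 for mmu-miR-302a-3p, chr3:127545275-127545297 for mmu-miR-302b-3p and chr3:127545665-127545687 for mmu-miR-302d-3p. Of the 11 mature sequences compared with RefSeq, 10 are in its table, each with the same sequence, and the other is mmu-miR-302a-3p, whose position here is that of its deposited sequence in the RefSeq hairpin. The hairpins of the members and of miR-302c follow, 5′ to 3′, with both arms in capitals, since the arms are compared further on.
Mir302a: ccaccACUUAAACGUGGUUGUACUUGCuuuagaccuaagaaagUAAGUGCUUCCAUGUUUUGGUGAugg
Mir302b: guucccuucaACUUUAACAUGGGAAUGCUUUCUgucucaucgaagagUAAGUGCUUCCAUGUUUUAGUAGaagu
Mir302c: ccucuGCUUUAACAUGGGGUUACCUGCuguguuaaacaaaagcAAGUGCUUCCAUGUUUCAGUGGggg
Mir302d: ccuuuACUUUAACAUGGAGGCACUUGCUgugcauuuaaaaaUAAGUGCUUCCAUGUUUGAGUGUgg

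The libraries held between 83626 and 6106104 uniquely matched reads, a range of 73.0-fold. Counts were scaled by TMM (trimmed mean of M values) and are given as normalised CPM, counts relative to 1 fixed library size. The shallowest library was Wt1 KO with RA, in which 3 reads, the upper limit behind a count of 0, stood for 27.8 CPM, against 0.448 to 2.75 CPM in the other 5 libraries. Brackets give 95% intervals that cover counting error only, since amplified reads without molecular identifiers are not independent molecules. Since each group is a single library, no difference could be checked in replicates or tested, and each comparison is between libraries and not between conditions. A miRNA was called higher, and is said to have risen, when its log2 ratio was 1 or more and its interval lay above 0. It was called lower, or to have fallen, at a ratio of -1 or less and an interval below 0. The miR-290 cluster, used as the marker list of embryonic stem cells with 18 entries, had 14 or 15 entries with a read and held 16.0% to 23.4% of reads without RA, 9.40% in Wt1 KO with RA and 0.751% in WT with RA. The 5 muscle and mesoderm entries held 0.0336% to 0.0971% of reads in 5 libraries and 0.474% in Wt1 KO with RA, with miR-1a-3p and miR-206-3p at 0 in all 6. The 7 blood and endothelium entries held 0.00891% to 0.394%, with miR-451a, miR-144-3p and miR-223-3p at 0 in all 6. The 6 neural entries held 0.0350% to 0.0741%, the 5 endoderm entries 0.0142% to 0.0466%, and the 5 fibroblast and mesenchyme entries 1.23% to 6.09%, most of it miR-22-3p in each library. The part of other cell types in the results was not tested.

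mmu-miR-302d-3p was the most abundant member. In WT its level was 455 CPM untreated and 10.8 CPM with RA, and in Wt1 KO it was 102 CPM untreated, 64.8 with RA, 138 at 12 h of dox and 397 at 24 h. The reads behind these levels were 496 and 72 in WT, and 144, 7, 156 and 1352 in Wt1 KO. It was high in untreated WT and at 24 h of dox and lowest in WT with RA. In Wt1 KO with RA, its 7 reads did not set it apart from untreated Wt1 KO beyond counting error.

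mmu-miR-302a-3p stood at 198 CPM in untreated WT and at 2.99 with RA, from 216 and 20 reads. In Wt1 KO it stood at 34.0 CPM untreated, 0 with RA, 64.5 at 12 h of dox and 161 at 24 h, from 48, 0, 73 and 548 reads. It followed the same pattern as mmu-miR-302d-3p among the deeper libraries. The count of 0 allows up to 27.8 CPM, which is above the level of this member in WT with RA, so the order of the 2 libraries with RA cannot be read.

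mmu-miR-302b-3p was the least abundant in the 4 libraries without RA. Its level in WT was 97.3 CPM untreated and 4.33 with RA, from 106 and 29 reads. In Wt1 KO it was 19.8 CPM untreated, 9.26 with RA, 56.5 at 12 h of dox and 109 at 24 h, from 28, 1, 64 and 372 reads. Unlike the other two members it was as high at 24 h of dox as in untreated WT, within counting error.

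Added up, the members reached 751 CPM in untreated WT, 668 at 24 h of dox, 259 at 12 h, 156 in untreated Wt1 KO, 74.0 in the same cells with RA and 18.1 in WT with RA. In that order each neighbouring pair differed beyond counting error with TMM. For untreated Wt1 KO and the same cells with RA this rests on 8 reads and on the scaling, since 3 other scalings gave an interval that held 0, and without a minimum count the interval for dox 24 h and untreated WT held 0 too. The sum was 0.0769% of all reads in untreated WT and 0.00198% in WT with RA, so the cluster was a minor part of each library. The span from the highest to the lowest library was 41.5-fold for the sum, 42.3-fold for mmu-miR-302d-3p and 25.2-fold for mmu-miR-302b-3p. Within a member, the neighbours in order that did not differ beyond counting error were dox 24 h and untreated WT for mmu-miR-302b-3p, untreated Wt1 KO and Wt1 KO with RA for mmu-miR-302b-3p and mmu-miR-302d-3p, and the 2 libraries with RA for mmu-miR-302a-3p and mmu-miR-302b-3p.

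**Figure D1:**
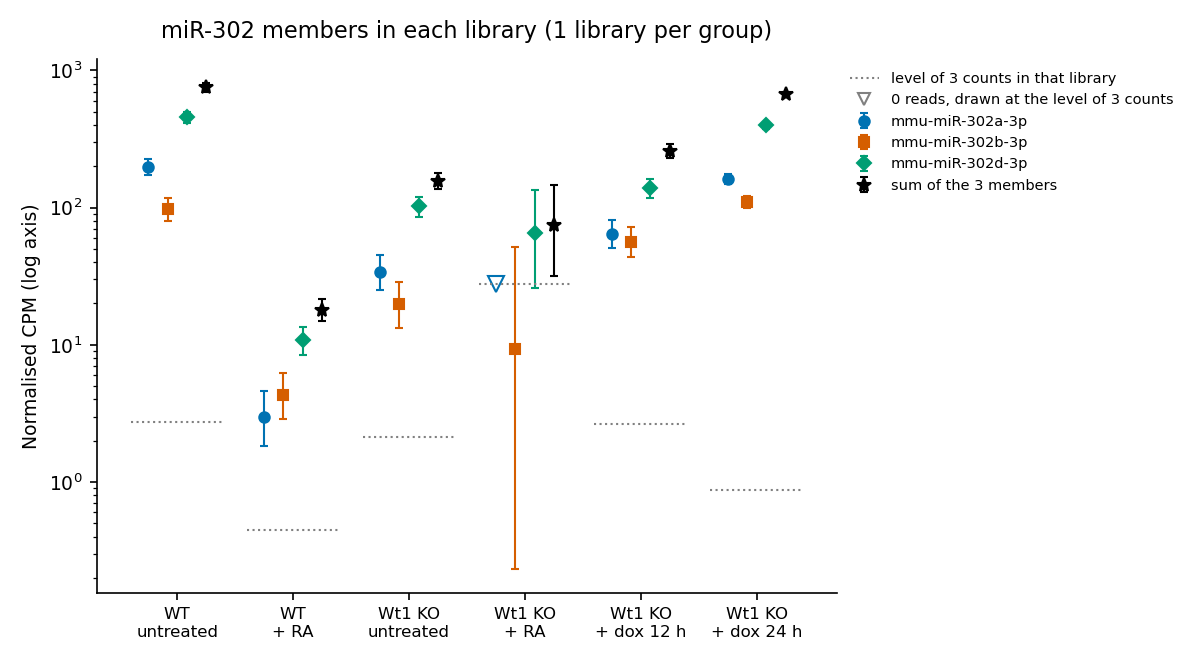
Level of each member and of their sum (normalised CPM, log axis) in each of the 6 libraries, 1 library per group. Bars are exact 95% Poisson intervals, dotted lines the level of 3 counts in that library, and the open triangle marks 0 reads. Untreated WT and dox 24 h sit highest for every member, and the sum in WT with RA, 18.1 CPM, is the lowest of the 6.

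What differs where Wt1 is missing is asked by setting untreated Wt1 KO against WT. The miR-302 members fell together: in Wt1 KO the sum was 4.81-fold lower, at 20.8% of the WT level, with a log2 ratio of -2.27 [-2.49, -2.05]. mmu-miR-302a-3p had a log2 ratio of -2.53 [-3.03, -2.09], mmu-miR-302b-3p of -2.28 [-2.95, -1.68] and mmu-miR-302d-3p of -2.15 [-2.44, -1.89]. All 3 members were called lower, where 15.4% of the 351 miRNAs were, and their median of -2.28 compares with 0.11 over all 351. Only 3.13%, 5.13% and 5.98% of the 351 had a lower ratio than mmu-miR-302a-3p, mmu-miR-302b-3p and mmu-miR-302d-3p. The interval of each difference between 2 of these 3 ratios held 0. Guides from 1 transcript are not independent, so 3 members moving alike is not 3 pieces of evidence. In these bulk libraries, fewer cells that express the cluster and less of it per cell cannot be told apart. Over all 351 miRNAs, 43 were higher and 54 lower, and with plain CPM of the total 24 were higher and 78 lower. Marker lists of other cell types moved between these libraries as well. The fibroblast and mesenchyme list was at its highest in untreated WT, with 6.09% of reads, and at its lowest in untreated Wt1 KO, with 1.23%, most of it miR-22-3p. Of its 3 tested entries 2 were called lower, with log2 ratios from -2.98 to 0.68 over the 3. The neural list went from 0.0350% to 0.0516%, with 2 of 3 tested entries called higher, where 43 of the 351 miRNAs were. Muscle and mesoderm went from 0.0336% to 0.0373%, with 1 of 2 tested entries called higher and 1 lower. The blood and endothelium list, most of it miR-150-5p, went from 0.0868% to 0.238%. Their part in the fall was not tested.

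The miR-290 cluster as a whole did not fall with miR-302 between these libraries. None of its 13 tested entries was called in either direction, with a median log2 ratio of 0.62, and the summed cluster gave 0.43 [0.42, 0.44]. The ratios ran from -0.89, for mmu-miR-290a-3p, to 0.98. Among the guides that carry the members' seed, mmu-miR-294-3p had 0.98 [0.95, 1.01], mmu-miR-291a-3p 0.44 [0.36, 0.51] and mmu-miR-295-3p 0.10 [0.09, 0.12]. The members' share of all reads with the seed was 0.929% [0.868, 0.994] without the knockout and 0.163% [0.142, 0.185] with it. The log2 odds ratio of these shares, which needs no scaling between libraries, was -2.53 [-2.74, -2.31]. The summed reads with the seed, members included, had a log2 ratio of 0.25 [0.23, 0.26], whose direction depends on the scaling: with plain CPM of the total it was -0.11 [-0.13, -0.10], and with CPM that leaves out the miR-290 and miR-302 clusters -0.10. The ratio of mmu-miR-295-3p turned likewise, to -0.26 and -0.25, while the summed miR-290 cluster stayed above 0, at 0.071 and 0.084.

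The comparisons of dox with untreated Wt1 KO ask what changes once Wt1 is switched on. After 24 h of dox the miR-302 sum was 4.27-fold higher than in untreated Wt1 KO, a log2 ratio of 2.10 [1.90, 2.31]. The log2 ratios were 2.23 [1.82, 2.70] for mmu-miR-302a-3p, 2.44 [1.91, 3.07] for mmu-miR-302b-3p and 1.96 [1.71, 2.22] for mmu-miR-302d-3p. All 3 members rose, against 5.7% of the 351 miRNAs, and their median was 2.23 where that of all 351 was -0.01. Of the 351, 98.6%, 99.1% and 98.0% had a lower ratio than mmu-miR-302a-3p, mmu-miR-302b-3p and mmu-miR-302d-3p. Over all 351, 20 were higher and 13 lower, and with plain CPM of the total 31 were higher and 10 lower. The fibroblast and mesenchyme list held 2.83% of reads at 12 h and 2.55% at 24 h of dox, both above the 1.23% of untreated Wt1 KO, and the blood and endothelium list 0.394% and 0.311% against 0.238%. Their part was not tested.

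At 12 h the increase was smaller. The sum was 1.66-fold the level of untreated Wt1 KO, a log2 ratio of 0.73 [0.47, 0.99] that missed the size rule. mmu-miR-302b-3p rose, with 1.50 [0.85, 2.21], while mmu-miR-302a-3p had 0.92 [0.38, 1.48] and mmu-miR-302d-3p 0.43 [0.10, 0.77]. This is 1 of 3 members, where 4.27% of the 351 miRNAs were called higher, and the members' median of 0.92 stood beside -0.08 over all 351. The split over all 351 was 15 higher and 30 lower, and it turned to 35 higher and 13 lower with plain CPM of the total. mmu-miR-302a-3p passed the size rule with plain CPM of the total, at 1.13, without a minimum count, at 1.02, and with CPM that leaves out the miR-290 and miR-302 clusters, at 1.25. With the last of these the sum passed it too, at 1.06.

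Between 12 h and 24 h of dox the sum rose 2.58-fold, with a log2 ratio of 1.37 [1.19, 1.55]. mmu-miR-302d-3p rose by 1.52 [1.29, 1.78] and mmu-miR-302a-3p by 1.31 [0.97, 1.69] on the log2 scale, and mmu-miR-302b-3p had 0.94 [0.57, 1.36]. These 2 of 3 called members stand against 4.27% of the 351 miRNAs, with medians of 1.31 for the members and 0.07 for all. This comparison does not use the untreated Wt1 KO library, and it sets 2 dox-treated libraries against each other.

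Set against untreated WT, the sum was at 34.5% of the WT level after 12 h and at 88.9% after 24 h of dox. The log2 ratios were -1.53 [-1.73, -1.34] and -0.17 [-0.29, -0.05]. At 12 h, mmu-miR-302a-3p with -1.61 [-2.02, -1.23] and mmu-miR-302d-3p with -1.72 [-1.99, -1.46] were called lower and mmu-miR-302b-3p, with -0.78 [-1.25, -0.32], was not. That is 2 of 3 members against 17.4% of the 351 miRNAs called lower, with medians of -1.61 and 0.01. At 24 h the values were -0.30 [-0.53, -0.07], 0.16 [-0.15, 0.49] and -0.20 [-0.35, -0.04] for mmu-miR-302a-3p, mmu-miR-302b-3p and mmu-miR-302d-3p. None of the 3 was called at 24 h, where 14.8% of the 351 miRNAs were still called lower, and the medians were -0.20 for the members and 0.12 for all. With plain CPM of the total the 12 h split over all 351 moved from 43 higher and 61 lower to 32 higher and 72 lower. The comparisons with untreated WT share that library, and those with untreated Wt1 KO share theirs, so they are not independent of one another.

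The guides of the miR-290 cluster with the same seed differed from miR-302 in this course. Their sum was 0.67 [0.66, 0.68] above untreated Wt1 KO at 12 h and 0.43 [0.43, 0.44] at 24 h on the log2 scale. Of the 13 tested entries of the cluster 1 was called higher at each time, where 4.27% of the 351 miRNAs were at 12 h and 5.7% at 24 h. It was mmu-miR-290a-3p both times, which has another seed, with 2.00 at 12 h and 1.02 at 24 h. The members' share of reads with the seed was 0.170% [0.151, 0.190] at 12 h and 0.513% [0.493, 0.535] at 24 h. The log2 odds ratio against untreated Wt1 KO was 0.06 [-0.19, 0.32] at 12 h and 1.66 [1.46, 1.86] at 24 h. So at 12 h the members had not moved beyond counting error relative to the sum of their seed mates, and at 24 h they had. Most of that sum was mmu-miR-295-3p, with 146295 of the 172221 reads at 12 h. Against untreated Wt1 KO at 12 h, mmu-miR-295-3p had a log2 ratio of 0.83, mmu-miR-291a-3p 0.64 and mmu-miR-294-3p -0.14. The result at 12 h therefore concerns the sum and not each mate. Against untreated WT the odds ratio at 24 h was still -0.86 [-0.98, -0.75], since the seed mates stood 0.69 [0.68, 0.70] above WT.

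**Figure D2:**
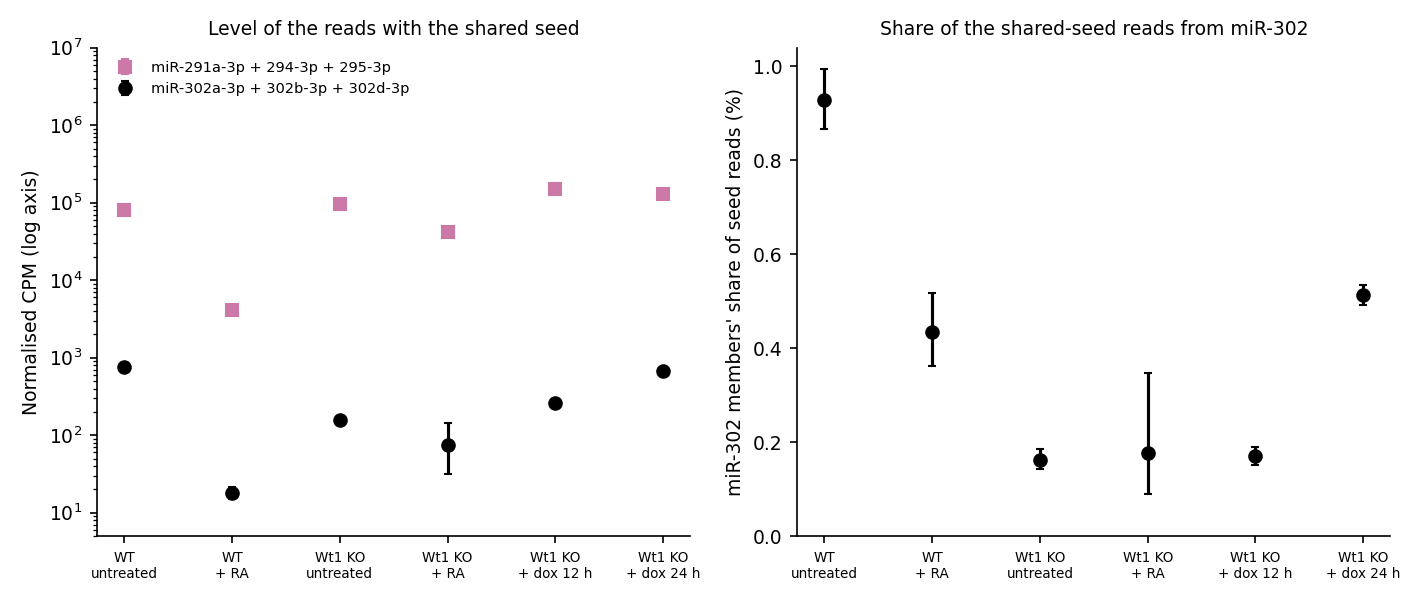
Left, level (normalised CPM, log axis) of the summed members and of the summed miR-290 cluster guides with the same seed, with exact 95% Poisson intervals. Right, the members' share of all reads with the seed (percent, 95% Wilson intervals), which ran from 0.163% in untreated Wt1 KO to 0.929% in untreated WT.

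RA in WT cells gave the lowest level of the summed members. The sum was 41.4-fold lower than in untreated WT, at 2.41% of that level, with a log2 ratio of -5.37 [-5.66, -5.10]. mmu-miR-302a-3p was 64.9-fold lower (-6.02 [-6.79, -5.39] on the log2 scale), mmu-miR-302d-3p 42.1-fold lower (-5.40 [-5.78, -5.04]) and mmu-miR-302b-3p 22.2-fold lower (-4.47 [-5.14, -3.89]). All 3 members fell, where 24.2% of the 351 miRNAs were called lower, with medians of -5.40 and 0.13. No other miRNA of the 351 had a lower ratio than mmu-miR-302a-3p, and 0.855% lay below mmu-miR-302d-3p and 2.56% below mmu-miR-302b-3p. Between these libraries the fibroblast and mesenchyme list went from 6.09% to 3.68% of reads, most of it miR-22-3p. Its entries did not move alike: of 3 tested, 1 was called higher and 1 lower, where 22.2% and 24.2% of the 351 miRNAs were. The merged entry of miR-199b-3p and miR-199a-3p was called higher, with 45 reads untreated and 817 with RA, and miR-21a-5p lower. Blood and endothelium went from 0.0868% to 0.00891%, muscle and mesoderm from 0.0336% to 0.0971% and endoderm from 0.0187% to 0.0396%. The part of these lists was not tested. The members differed among themselves here: the fall of mmu-miR-302b-3p was smaller than that of mmu-miR-302a-3p, by 1.55 [0.67, 2.43] on the log2 scale, and smaller than that of mmu-miR-302d-3p by 0.92 [0.24, 1.61].

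The seed mates fell with them. All 13 tested entries of the miR-290 cluster were called lower with RA in WT, with a median log2 ratio of -4.47, and the summed guides with the members' seed had -4.27 [-4.29, -4.25]. The members' share of reads with the seed went from 0.929% to 0.434% [0.363, 0.518], a log2 odds ratio of -1.11 [-1.38, -0.83]. The let-7 family, known for opposing the guides of this seed in differentiating cells, went the other way, with 6 of 7 tested entries called higher, where 22.2% of the 351 miRNAs were, and a median of 1.93. Of the miR-17 family, whose seed overlaps that of the members by all but a base, 2 of 6 tested entries were called lower, where 24.2% of the 351 miRNAs were. None was called higher, where 22.2% were, and the median was 0.14 beside 0.13 over all 351.

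In Wt1 KO cells the response to RA rests on 8 reads of the members. At the level of untreated Wt1 KO this library would have held 16.8 such reads, and at the level of WT with RA 1.95. The sum had a log2 ratio of -0.99 [-2.30, -0.07] and missed the size rule by a narrow margin. It was past the rule under 5 alternatives, at -1.04 to -1.34. It shrank under others, to -0.29 [-1.61, 0.63] with plain CPM of the total and -0.42 with CPM that leaves out the miR-290 and miR-302 clusters, where the interval held 0 as well. For mmu-miR-302d-3p, with 7 reads where 11.0 would match untreated Wt1 KO, the ratio was -0.56 [-1.996, 0.42]. mmu-miR-302b-3p, with 1 read, had -0.54 [-6.45, 1.50]. mmu-miR-302a-3p had 0 reads where 3.68 would match untreated Wt1 KO, and the interval of its ratio, with an upper end of 0.061, held 0. When the mean count required was 10 or 200, or was dropped, that interval lay below 0 and this member was called. None of the 3 members was called, where 22.5% of the 351 miRNAs were called lower. No median is given, because 1 of the 3 ratios rests on 0 reads. For these individual members the change was not detectable at this depth. The split over all 351 was 83 higher and 79 lower, and 126 higher and 33 lower with plain CPM of the total, under which the ratios of mmu-miR-302b-3p and mmu-miR-302d-3p turn above 0.

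The 2 libraries with RA were compared to ask how the genotypes differ after RA. In Wt1 KO with RA the sum was 4.33-fold the level of WT with RA, a log2 ratio of 2.12 [0.79, 3.06]. mmu-miR-302d-3p was called higher, with 2.68 [1.23, 3.71] from 7 reads against 72, and mmu-miR-302b-3p had 1.66 [-4.26, 3.69], from 1 read, with values from 1.06 to 2.58 over the alternatives. mmu-miR-302a-3p gives no fold, since its level in WT with RA is below that of 3 counts in Wt1 KO with RA. This is 1 of 3 members, where 18.8% of the 351 miRNAs were called higher. All 13 tested entries of the miR-290 cluster were called higher there too, with a median of 3.63. Over all 351, 66 were higher and 67 lower, and 82 and 42 with plain CPM of the total.

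The difference between the RA responses, Wt1 KO minus WT on the log2 scale, was 4.38 [3.36, 5.41] for the sum, and from 4.02 to 5.10 over the alternatives. It was 4.83 [3.72, 5.95] for mmu-miR-302d-3p and 3.93 [1.49, 6.37] for mmu-miR-302b-3p, both called, with values from 4.47 to 5.55 and from 3.34 to 4.81 over the alternatives. In Wt1 KO with RA these 2 values rest on 7 reads and on 1 read. At 1 read the delta method is a rough approximation, and the exact intervals of both ratios that use this read held 0. An exact interval of the difference was not computed, so the call of mmu-miR-302b-3p is uncertain. For mmu-miR-302a-3p the difference depended on the prior count, because Wt1 KO with RA had no read. These 2 of 3 members compare with 23.1% of the 351 miRNAs whose difference was called above 0. The seed mates differed in the same direction, by 3.08 [3.03, 3.13], and the split over all 351 was 81 above and 53 below, or 131 and 18 with plain CPM of the total. The response starts from a lower level in Wt1 KO, where the sum before RA was at 20.8% of that in WT. The muscle and mesoderm list was also highest in Wt1 KO with RA, at 0.474% of reads, most of it miR-143-3p with 372 reads. Its 2 tested entries had a difference called above 0, with a median of 2.28. So had all 3 tested entries of the fibroblast and mesenchyme list, with a median of 2.30. Of the 3 tested neural entries 1 was called above and 1 below, and no entry of the blood and endothelium or endoderm lists was called. The part of these lists in the difference was not tested.

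**Figure D3:**
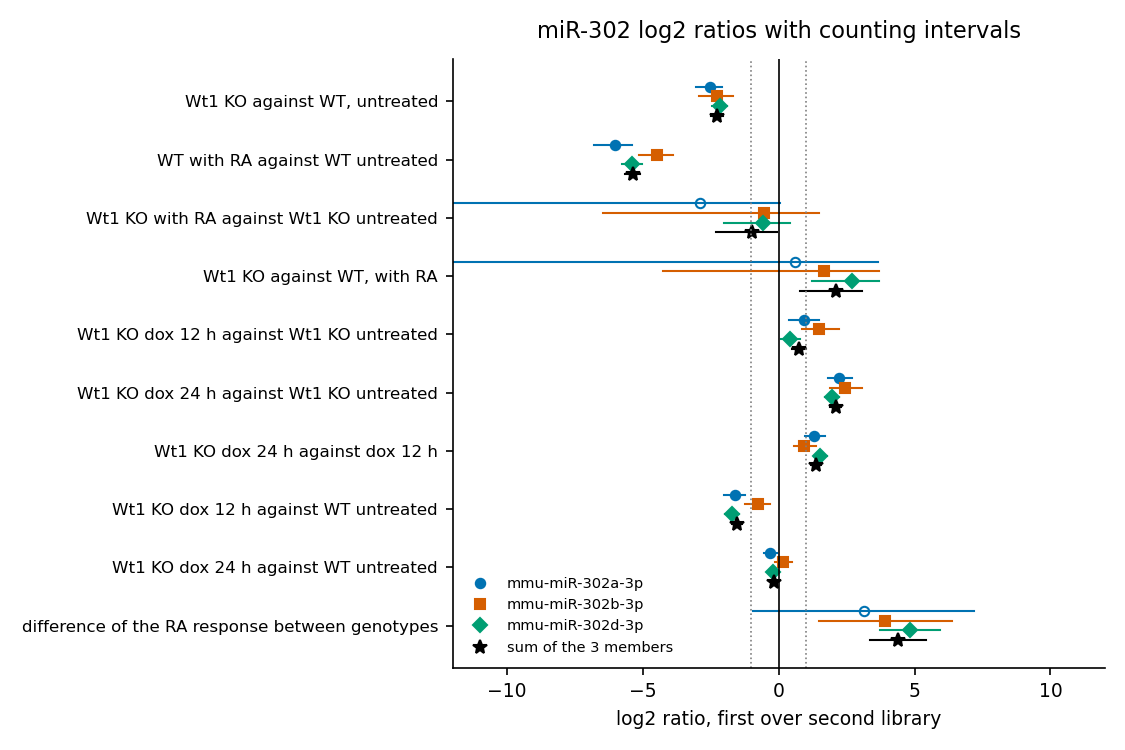
Log2 ratio (first over second library) of each member and of the sum in the 9 comparisons and in the difference of the RA responses, with 95% counting intervals. Dotted lines mark the size rule of 1 and -1. Open symbols involve a library with 0 reads, and their place depends on the prior count. All members lie below -1 for Wt1 KO and for RA in WT, and above 1 for dox 24 h against untreated Wt1 KO.

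**Figure D4:**
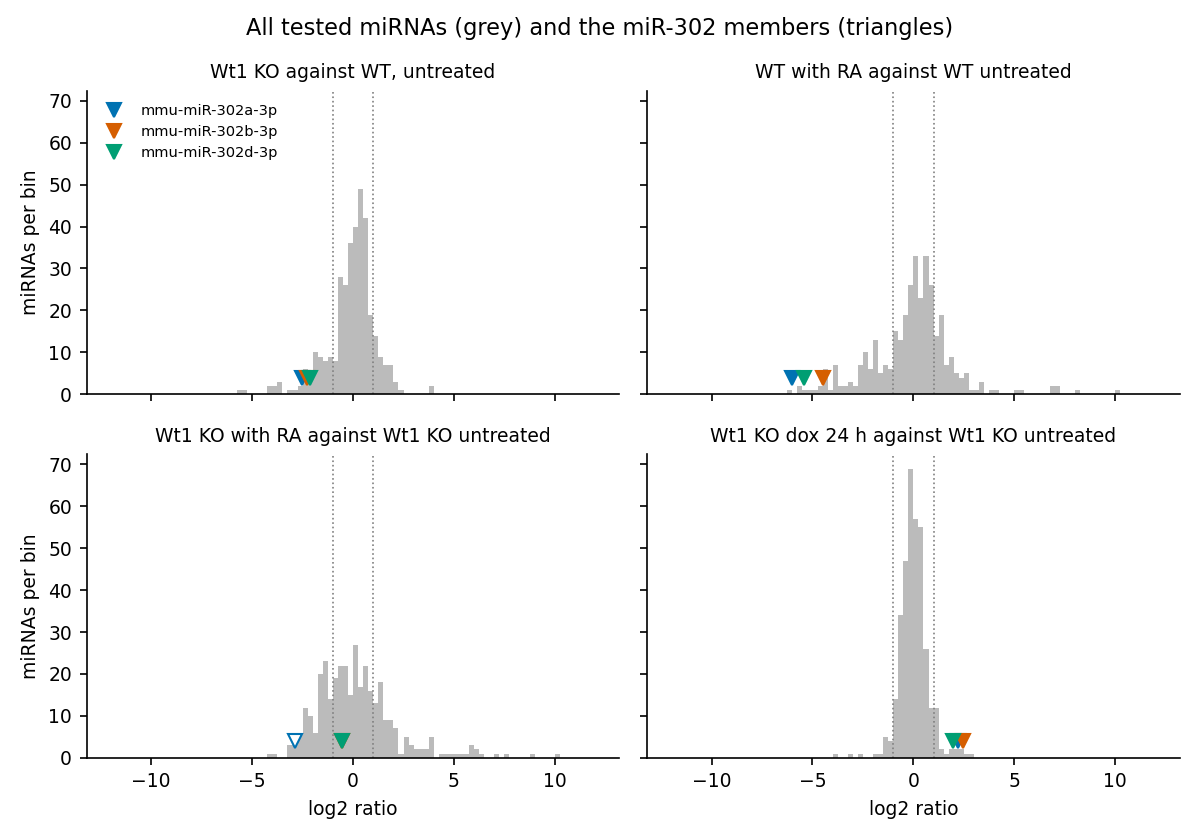
Log2 ratios of all 351 miRNAs (grey, bins of 0.25) in 4 comparisons, with the members as triangles whose height has no meaning. The members lie in the lower tail for Wt1 KO and for RA in WT, in the upper tail for dox 24 h, and the open triangle is mmu-miR-302a-3p with 0 reads in Wt1 KO with RA.

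The makeup of the miR-302 reads varied less than their level. Over all libraries mmu-miR-302d-3p gave 59.7% of the 3732 member reads, mmu-miR-302a-3p 24.2% and mmu-miR-302b-3p 16.1%. The share of mmu-miR-302d-3p ran from 53.2% [47.5, 58.9] after 12 h of dox to 65.5% [59.0, 71.4] in untreated Wt1 KO among the 5 deeper libraries, and was 7 of 8 reads in Wt1 KO with RA. mmu-miR-302b-3p held 13.0% [10.8, 15.4] in WT without RA and 24.0% [17.2, 32.3] with it. In Wt1 KO its share was 12.7% [8.95, 17.8] untreated, 21.8% [17.5, 26.9] at 12 h of dox and 16.4% [14.9, 18.0] at 24 h. It was thus highest at 12 h of dox and in WT with RA. Of the 27 differences between 2 members' log2 ratios over the 9 comparisons, 8 had an interval that excludes 0, and each of the 8 involved mmu-miR-302b-3p. After 12 h of dox, mmu-miR-302b-3p exceeded mmu-miR-302d-3p by 1.06 [0.35, 1.78] against untreated Wt1 KO. From 12 h to 24 h it lagged behind it by 0.58 [0.13, 1.03].

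**Figure D5:**
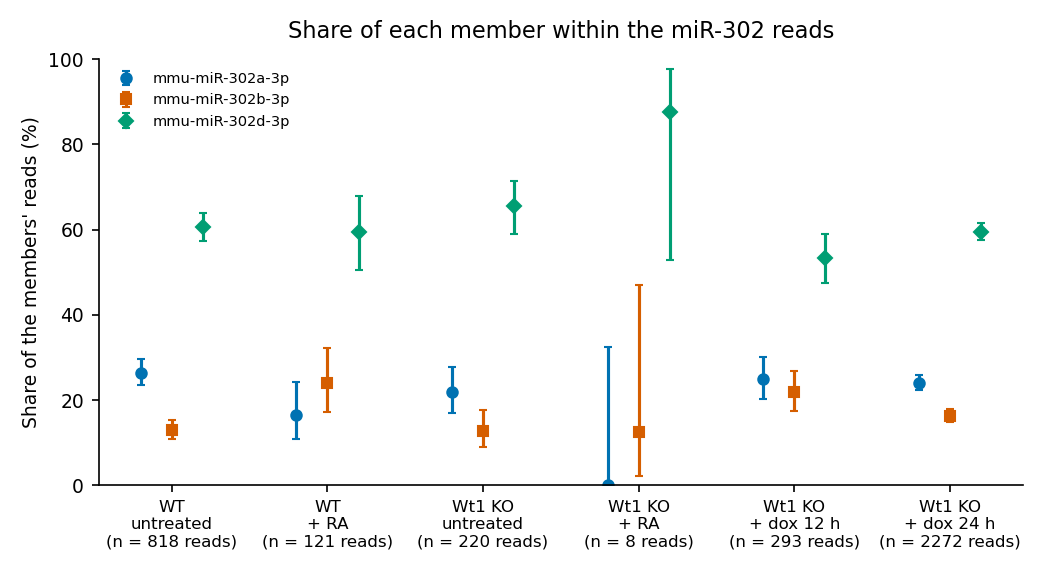
Share of each member within the reads of all 3 (percent, 95% Wilson intervals) in each library, with the number of reads under each group. mmu-miR-302d-3p leads everywhere, and mmu-miR-302b-3p passes mmu-miR-302a-3p in WT with RA and, on 1 read against 0, in Wt1 KO with RA.

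The rest of the cluster was close to the limit of detection. The other 7 entries together gave 44 reads in WT and 4 with RA. In Wt1 KO they gave 7 reads untreated, 2 with RA, 26 at 12 h of dox and 95 at 24 h. Their sum had the same direction as the members in 3 comparisons, with log2 ratios of -2.94 [-4.42, -1.86] for untreated Wt1 KO against WT, 2.40 [1.39, 3.85] for dox 24 h against untreated Wt1 KO and -5.93 [-8.02, -4.62] for RA in WT. After 12 h of dox the sum was already 2.14 [0.97, 3.66] above untreated Wt1 KO on the log2 scale, from 26 reads against 7. Its level was 23.0 CPM at 12 h and 27.9 at 24 h, so on these few reads most of the rise came by 12 h, unlike that of the members. mmu-miR-367-3p, whose hairpin ends the cluster and which has another seed, had 1 read after 24 h of dox and 1 in Wt1 KO with RA. mmu-miR-367-5p and mmu-miR-302b-5p had no read in any library.

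The arms of the printed hairpins were used unequally. The 3p arm, from which the members come, gave nearly all reads of its hairpin. Over all libraries the 5p arm held 2.79% [1.91, 4.06] of the reads for miR-302a and 2.96% [2.34, 3.74] for miR-302d. For miR-302b it held 0 of 600 reads, with an upper end of the interval at 0.64%. For miR-302c the arms were near even when pooled, with 42 reads on the 5p arm and 40 on the 3p arm, a 5p share of 51.2% [40.6, 61.7]. Single libraries differed: the 5p share was 75.0% [53.1, 88.8] in untreated WT, from 15 reads against 5. It was 30.8% [12.7, 57.6] at 12 h of dox and 42.5% [28.5, 57.8] at 24 h. That hairpin also gave few reads on either arm, with mmu-miR-302c-3p at most at 23 reads in a library where mmu-miR-302d-3p had 1352. Its 3p entry is the one that starts a base later than the members, and whether guides that start at the members' base were counted under it was not tested.

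The 5 miRNAs whose levels were most like the sum of the members were sought among the 348 other miRNAs with a mean count of at least 50, by Pearson r of log2(CPM + 1) over the 6 libraries. They were mmu-miR-1934-5p with r = 0.95, mmu-miR-139-5p with 0.94, mmu-miR-467d-5p with 0.94, mmu-miR-467c-5p with 0.94 and mmu-miR-669k-5p with 0.92. In all, 7 of the 348 reached 0.9, and the median r was -0.08. These points share their libraries, depth and scaling, and the lowest point, WT with RA, weighs heavily in each r. In Wt1 KO with RA, mmu-miR-1934-5p and mmu-miR-139-5p had 3 reads each and mmu-miR-669k-5p had 2, so their points there are near the limit of detection. The likeness is of shape and not of size: mmu-miR-467d-5p ran from 3018 CPM in untreated WT to 567 in WT with RA, and mmu-miR-1934-5p from 51.1 CPM after 24 h of dox to 17.8 in WT with RA. Only 3 of the 5 were among the first 5 when the Wt1 KO library with RA was left out. The seed mates mmu-miR-295-3p, mmu-miR-294-3p and mmu-miR-291a-3p had r of 0.86, 0.83 and 0.78, and mmu-miR-290a-3p of the same cluster had 0.89.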

How the data were processed

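Small RNA was sequenced from 6 groups of mouse embryonic stem cells, 1 library each. Per the file headers, the authors deposited counts per mature miRNA entry, as unique matches and multi-matches; no aligner, mismatch limit, miRBase version or build is stated for them. Near-identical miRNAs can lose reads to the multi-matches. Unique-match counts were analysed as deposited and scaled by TMM over the 351 entries with a mean of at least 50 (edgeR 4.0.16, R 4.3.3), with factors of 0.798 to 1.29. Log2 ratios used a prior count of 0.5 per library, exact conditional binomial (Clopper-Pearson) 95% intervals and, for the difference of responses, the delta method; shares have Wilson intervals. The steps were tested on simulated data. With 1 library per group no test was possible, and edgeR was used for scaling only. Alternatives were CPM of the total, DESeq2 1.42.0 size factors, CPM with the miR-290 and miR-302 clusters taken out, TMM without Wt1 KO with RA, added multi-matches, a prior of 2 or one scaled to library size, and a minimum of 10, 200 or none. The members and lists were chosen with earlier results of these data known. Named miRNAs are the members, the cluster's entries with a read, entries with the seed, up to 4 of each list by mean count and the 5 most alike. Single marker entries are also named where a list's value rests on them or they depart from their list. Sequences are from the deposited tables and RefSeq (GRCm38.p6).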

Additional observations from a re-analysis of the deposited data

How the results depend on the processing

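The direction of the summed miR-302 ratio was the same in all 97 values over the 10 alternatives, and 91 also stayed on the same side of the size rule. The other 6 came past it. For RA in Wt1 KO the log2 ratio was -1.04 with multi-matches added, -1.09 with a minimum mean count of 10, -1.06 with 200, -1.34 with no minimum and -1.07 with the prior scaled to library size, an alternative chosen after seeing the data; over all alternatives it ran from -1.34 to -0.29. For dox 12 h against untreated Wt1 KO it was 1.06 with CPM with the miR-290 and miR-302 clusters taken out. The cause was not tested.

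Of the 291 values of single members, 277 were the same, 7 came past the size rule, 3 of them mmu-miR-302a-3p for dox 12 h against untreated Wt1 KO, and 7 changed sign. Each change of sign involved Wt1 KO with RA, where the members have 0, 1 and 7 reads. For RA in Wt1 KO, mmu-miR-302b-3p turned to 0.15 with CPM of the total, 0.031 with CPM with the miR-290 and miR-302 clusters taken out and 0.39 with a prior count of 2, and mmu-miR-302d-3p to 0.13 and 0.011 with the first 2 of these. For mmu-miR-302a-3p the scaled prior gave -3.89 between the genotypes with RA and -1.35 for the difference of the RA responses. With 0 reads these follow from the prior. The other scalings were applied to the guides with the members' seed after seeing the data. CPM of the total moved the median of all 351 miRNAs by up to 0.70 on the log2 scale (RA in Wt1 KO).

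Counts of miRNAs called moved with the number tested. With a minimum of 200 they were 53 for the untreated genotypes, 102 for WT given RA, 23 and 18 for dox 12 h and 24 h against untreated Wt1 KO, 11 for 24 h against 12 h, and 68 and 52 for dox 12 h and 24 h against untreated WT. With a minimum of 10 they were 73, 62 and 37 for the 3 comparisons among Wt1 KO and dox libraries in the same order, and with no minimum 83, 77 and 46, with 276 for RA in WT, 152 for dox 24 h against untreated WT and 245, from 134, for the difference of the RA responses. With the minimum of 50 used throughout they were 97, 163, 45, 33, 19, 104 and 90 in the order of the first list. No replicate could be left out and no paired analysis was possible because each group has 1 library.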
